A study of Homo sapiens with 12 samples.

Results

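Deoxynucleotides, the building blocks of DNA, are made and kept in balance by a small group of enzymes, and 9 genes of this group are described here: RRM1, RRM2, RRM2B, TYMS, TK1, DUT, DCTPP1, SAMHD1 and TYMP. They were chosen by name from the 57133 genes in the count files. All 9 had enough counts to be tested, among 14504 genes that did. The RNA came from MCF10-A cells, an established and non-tumorigenic human breast epithelial line, at 5 days of induction with 50 ng/ml doxycycline, which all 4 groups received. The inducible transgene was the yellow fluorescent protein mVenus alone (the mVenus group), mVenus joined to p16 (the p16 group) or mVenus joined to p21 (the p21 group). The p16 and p21 proteins are inhibitors of cyclin-dependent kinases and block entry into S phase. A further group of p16 cells received Torin2 at 100 nM, which inhibits the mTOR kinase, in place of the solvent DMSO. The drug was added 24 hours after doxycycline, with 48 hours between media. Each group held 3 libraries, described by the series as biological replicates. No mVenus or p21 library with Torin2 was analysed, so an effect of Torin2 outside p16 cells could not be measured, and whether a line was a clone is not given in the sources used here.

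Ribonucleotide reductase turns ribonucleotides into deoxynucleotides. Its large subunit is RRM1, and its small subunit is either RRM2, known for its rise in S phase, or RRM2B, a p53-inducible subunit that serves cells outside S phase and mitochondrial DNA. Thymidylate is made either from dUMP by thymidylate synthase (TYMS) or from salvaged thymidine by the cytosolic kinase TK1, while dUTPase (DUT) removes dUTP and so both supplies dUMP and keeps uracil out of DNA. SAMHD1 breaks deoxynucleotide triphosphates down, DCTPP1 hydrolyses dCTP and its modified forms, and thymidine phosphorylase (TYMP) breaks thymidine down. The comparisons ask how this supply differed between cycling cells and cells held by p16 or p21, and with Torin2 in p16 cells. What part of a Torin2 effect runs through mTOR was not tested.

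The 12 libraries held 13168749 to 18321114 assigned counts. CDKN2A, the gene of p16, had 0 counts in every library, which allows up to 0.0631 CPM (counts scaled to library size) over the p16 libraries, so it gives no check of the p16 label; the gene models need not count reads from the transgene. CDKN1A, the gene of p21, had 712 ± 12.97 CPM in mVenus, 570.3 ± 30.1 in p16, 889 ± 16.5 in p21 and 259 ± 17.0 in p16 with Torin2 (SD, n = 3 here and below). All 9 epithelial markers, general (such as EPCAM and CDH1) and basal (such as KRT5 and TP63), were detected in each group, with summed levels of 6415 to 6697 CPM in mVenus, 15644 to 16463 in p16, 8559 to 8713 in p21 and 10914 to 11307 in p16 with Torin2. Mitochondrially encoded transcripts took 3.85% to 3.91% of counts in mVenus and 5.66% to 6.98% in the other libraries, and what part this plays in the results was not tested. In bulk RNA, fewer cells that express a gene and less of its RNA per cell cannot be told apart. Below, CPM values are scaled to library size, and genes said to have risen or fallen had an adjusted p under 0.05 in the edgeR quasi-likelihood test over all tested genes.

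In p16 against mVenus, 6 of the 9 genes fell and 3 rose, while 32.8% of all tested genes were called lower and 30.9% higher. In p21 against mVenus, 6 fell and 2 rose, against 28.3% and 28.2% of all tested genes. With Torin2 in p16 cells, 5 rose and 4 fell, against 30.3% and 29.0%. The median log2 fold change of the 9 was -0.37, -0.64 and 0.35 in these 3 comparisons, beside -0.0036, -0.0037 and 0.02 over all tested genes. The libraries of the compared groups did not overlap for 8, 9 and 9 of the 9 genes, where 65.9%, 64.4% and 62.0% of all tested genes did not. The first pair of comparisons shares the mVenus libraries, and the Torin2 comparison shares the p16 libraries with the first.

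**Figure D1:**
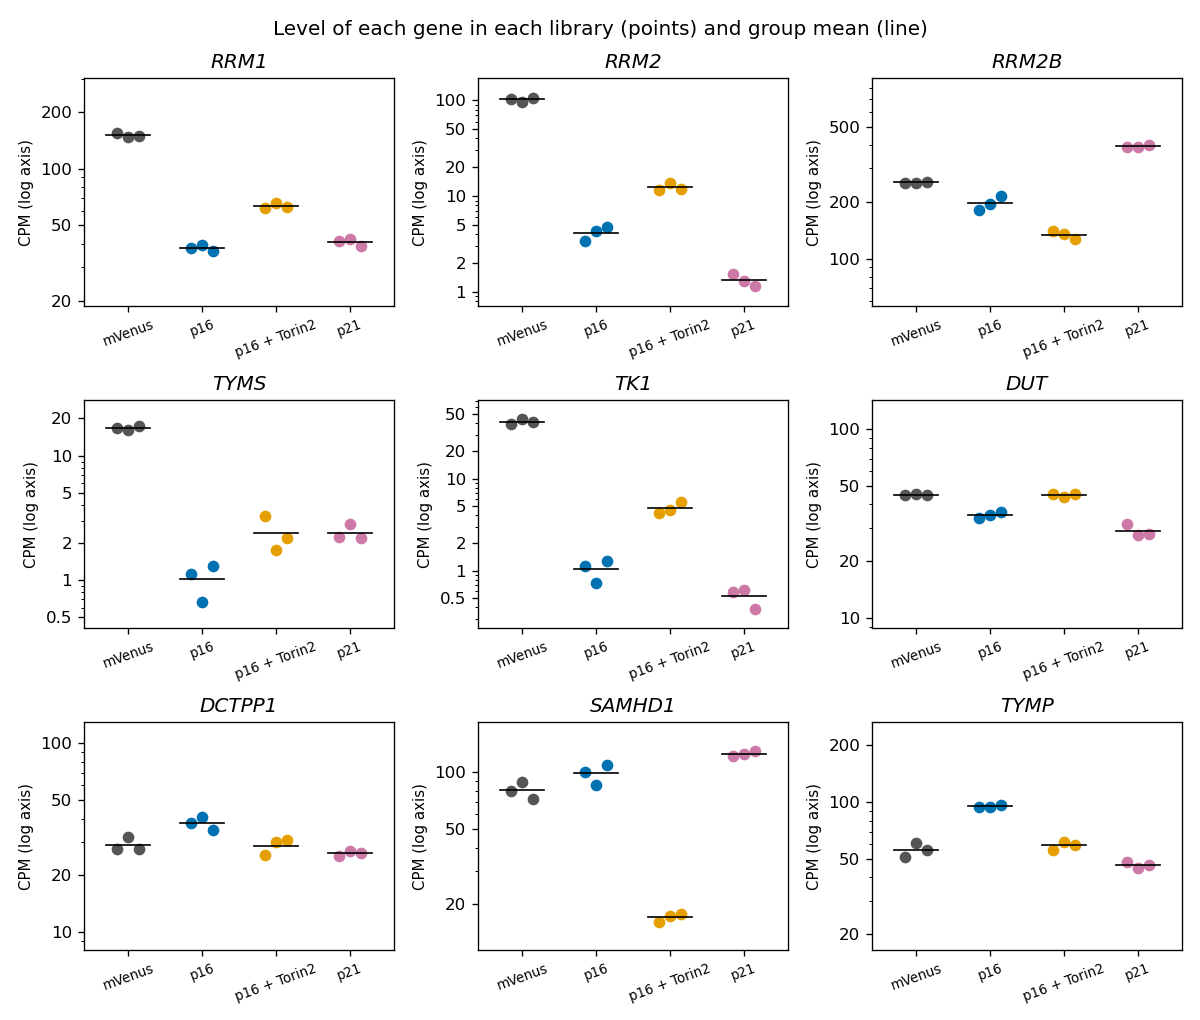
Each panel plots CPM on a log axis (ranges differ between panels) for 1 gene, with a point for each of the 12 libraries and a line at the group mean. RRM1, RRM2, TYMS and TK1 are highest in mVenus, RRM2B and SAMHD1 are highest in p21, and TYMP and DCTPP1 are highest in p16.

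RRM1, the large subunit of ribonucleotide reductase (chromosome 11, 4094707 to 4138876, GRCh38), stood at 154, 148 and 149.7 CPM in the mVenus libraries. It was at 37.9, 39.2 and 36.6 CPM in p16, at 61.9, 65.5 and 62.7 in p16 with Torin2, and at 41.5, 42.5 and 39.1 in p21. The mVenus libraries were the highest and those with Torin2 came next, while the p16 and p21 libraries overlapped. RRM1 was 3.97-fold lower in p16 than in mVenus (log2 fold change -1.99 ± 0.05 SE, adjusted p = 1.90e-18) and 3.67-fold lower in p21 (-1.87 ± 0.05, adjusted p = 5.52e-18). Torin2 raised it 1.67-fold in p16 cells (0.74 ± 0.05, adjusted p = 6.57e-11). Between p21 and p16 the difference did not pass (0.11 ± 0.05, 95% interval 0.01 to 0.22, adjusted p = 0.0706).

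RRM2, the S-phase small subunit (chromosome 2, 10120698 to 10131419), had 103.5, 96.8 and 106 CPM in mVenus. It fell to 3.37, 4.35 and 4.74 CPM in p16 and to 1.54, 1.30 and 1.15 CPM in p21, and stood at 11.5, 13.7 and 11.8 CPM in p16 with Torin2. No 2 groups overlapped, in the order p21, p16, p16 with Torin2 and mVenus. The p16 level was 24.7-fold below mVenus (-4.62 ± 0.09, adjusted p = 6.63e-20) and the p21 level 77.0-fold below (-6.27 ± 0.11, adjusted p = 4.84e-20). Tested directly, p21 was 3.12-fold below p16 (-1.64 ± 0.20, adjusted p = 5.23e-07). Torin2 raised RRM2 2.98-fold (1.58 ± 0.12, adjusted p = 4.53e-10), to a level still 8.27-fold below mVenus (-3.05 ± 0.07, adjusted p = 2.43e-18).

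RRM2B, the p53-inducible small subunit (chromosome 8, 102204502 to 102239118), moved in opposite directions in p16 and p21. It had 252, 252 and 256 CPM in mVenus, and the p21 libraries lay above these at 390.0, 392 and 401 CPM. The p16 libraries lay below them at 180.2, 194 and 216 CPM, and those with Torin2 were lowest at 141, 134 and 126 CPM. RRM2B rose 1.55-fold in p21 (0.64 ± 0.05, adjusted p = 5.96e-10) and fell 1.29-fold in p16 (-0.37 ± 0.05, adjusted p = 2.02e-06). The direct difference was 2.01-fold in favour of p21 (1.004 ± 0.05, adjusted p = 6.58e-13). Torin2 lowered it a further 1.47-fold in p16 cells (-0.55 ± 0.05, adjusted p = 1.31e-08).

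The make-up of the reductase transcripts also differed between the groups. Levels of different genes were compared per kilobase of exon, as the count files give gene lengths. RRM2 made up 29.9%, 28.6% and 30.1% of the small-subunit level (RRM2 plus RRM2B per kilobase) in the mVenus libraries, so RRM2B already had the higher level there. The share of RRM2 was 1.91%, 2.28% and 2.24% in p16, 7.86%, 9.60% and 8.88% in p16 with Torin2, and 0.410%, 0.345% and 0.297% in p21. The summed small-subunit level per kilobase was 64.9 ± 1.16 CPM in mVenus and 71.3 ± 1.0 in p21, against 36.2 ± 3.34 in p16 and 26.4 ± 1.32 with Torin2. Set against the large subunit, it was 1.80 ± 0.04 times RRM1 in mVenus, 4.0 ± 0.47 times in p16, 1.74 ± 0.10 times with Torin2 and 7.27 ± 0.41 times in p21. With only the exonic bases that no other gene shares as lengths, the share of RRM2 was 34.5% in mVenus, 0.439% in p21, 2.67% in p16 and 10.8% with Torin2. By that measure the summed level was 69.7 ± 1.38 CPM in mVenus, 71.4 ± 0.99 in p21, 36.4 ± 3.37 in p16 and 27.0 ± 1.33 with Torin2. The mVenus and p21 libraries then overlapped (68.3 to 71.0 and 70.7 to 72.5 CPM). Against RRM1 it was 1.91 ± 0.04 times in mVenus, 3.96 ± 0.46 times in p16, 1.76 ± 0.10 times with Torin2 and 7.17 ± 0.40 times in p21. These sums and ratios are descriptions, without a test of their own.

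**Figure D2:**
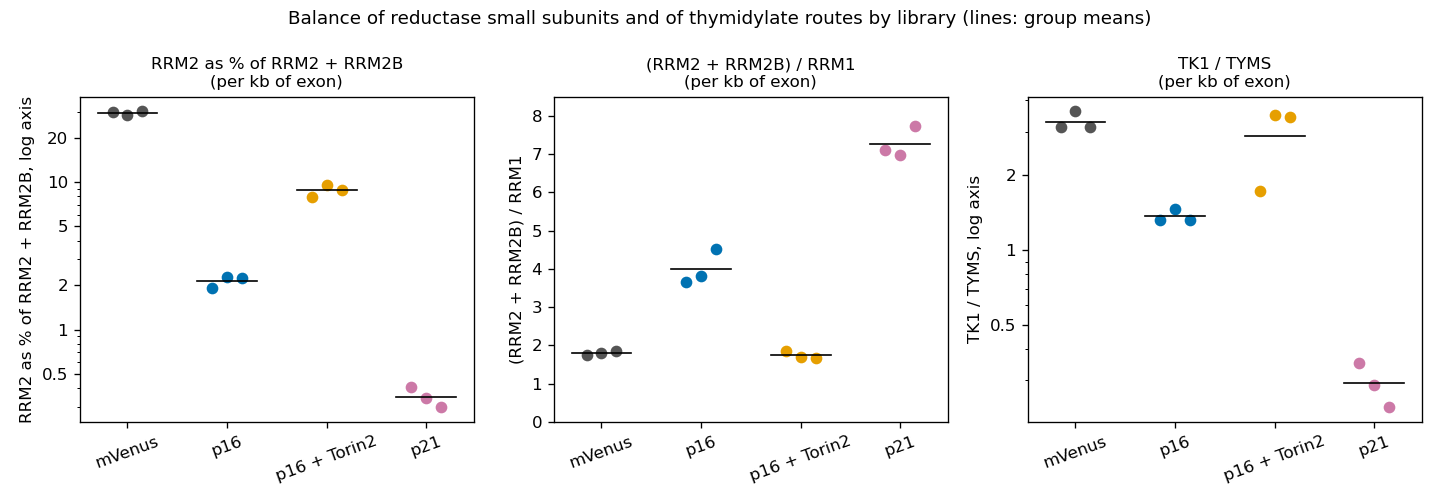
Points are the 12 libraries and lines the group means, for RRM2 as a percentage of RRM2 plus RRM2B (log axis), for the ratio of both small subunits to RRM1 (linear axis from 0) and for the ratio of TK1 to TYMS (log axis), each from CPM per kilobase of exon. RRM2 makes up 28.6% to 30.1% in mVenus and 0.297% to 0.410% in p21, and the ratio of small subunits to RRM1 is highest in p21. With unshared bases as lengths (not drawn), the p16 ratios of TK1 to TYMS are 0.709 to 0.780.

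TYMS, thymidylate synthase (chromosome 18, 657604 to 673578), had 16.7, 16.3 and 17.5 CPM in mVenus. It had 1.12, 0.659 and 1.29 CPM in p16, from 10 to 19 counts a library, and 2.20, 2.85 and 2.17 CPM in p21. The Torin2 libraries held 3.26, 1.75 and 2.16 CPM and overlapped those of p21. All libraries of p16, p21 and p16 with Torin2 lay below mVenus, and for this gene p16 was the lowest group. TYMS was 16.3-fold lower in p16 (-4.03 ± 0.19, adjusted p = 1.49e-13) and 6.95-fold lower in p21 (-2.80 ± 0.16, adjusted p = 6.05e-12), and p21 exceeded p16 by 2.35-fold (1.23 ± 0.26, adjusted p = 0.000464). Torin2 raised it 2.33-fold (1.22 ± 0.26, adjusted p = 0.000463). Its level is uncertain, because 46.6% of its exonic bases are shared with the opposite-strand genes ENOSF1 and TYMSOS, and strand was not used in counting. ENOSF1 was at 13.9 ± 1.42 CPM in mVenus, 16.2 ± 0.493 in p16, 15.1 ± 0.736 in p21 and 20.7 ± 3.85 with Torin2, and its part in the TYMS values was not tested.

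TK1, the S-phase thymidine kinase (chromosome 17, 78174075 to 78187233), shared no exonic base with another gene. Its levels were 39.4, 44.3 and 41.1 CPM in mVenus, 1.12, 0.725 and 1.29 in p16, 4.23, 4.59 and 5.57 in p16 with Torin2, and 0.587, 0.619 and 0.382 in p21. The groups did not overlap and stood in the same order as those of RRM2. TK1 was 39.4-fold lower in p16 than in mVenus (-5.30 ± 0.13, adjusted p = 4.62e-18) and 77.4-fold lower in p21 (-6.27 ± 0.15, adjusted p = 3.80e-18). Torin2 raised it 4.57-fold (2.19 ± 0.20, adjusted p = 6.36e-09), the largest rise among the 9 genes. The p21 level rested on 8, 10 and 6 counts and was 1.96-fold below that of p16 (-0.97 ± 0.33, adjusted p = 0.0164), a call that ended without p16 replicate 3 (adjusted p = 0.0775) or without p21 replicate 3 (adjusted p = 0.0809). Over all alternatives of that comparison the log2 difference ran from -1.18 to -0.78.

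The levels of the salvage kinase and of the synthase did not fall in step. Per kilobase, TK1 had 3.13, 3.61 and 3.12 times the level of TYMS in mVenus, 1.33, 1.46 and 1.33 times in p16 and 0.354, 0.289 and 0.234 times in p21. With Torin2 the ratio was 1.73, 3.49 and 3.42, so the p16 libraries lay below all of these. With unshared bases as lengths the group means were 1.76, 0.733, 0.156 and 1.54 in the order mVenus, p16, p21 and p16 with Torin2. By that measure TK1 lay below TYMS in the p16 libraries (0.709, 0.780 and 0.709), while by whole exons it lay above. Reads over bases shared between genes were left unassigned, so whole-exon lengths understate TYMS, and whole-exon ratios to it are too high. The ratios of TK1 to TYMS are descriptions too, without a test of their own. In p21 they rest on 8, 10 and 6 counts of TK1. In p16 they rest on 18, 11 and 19 counts of TK1 and 18, 10 and 19 of TYMS.

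DUT, the dUTPase (chromosome 15, 48331011 to 48343373), changed far less. Its mVenus libraries had 44.8, 45.6 and 44.7 CPM, those of p16 33.9, 34.98 and 36.4, those with Torin2 45.6, 43.6 and 45.3, and those of p21 31.4, 27.7 and 28.0. The p16 and p21 groups lay below mVenus, p21 below p16, and the Torin2 libraries overlapped mVenus. DUT fell 1.28-fold in p16 (-0.36 ± 0.05, adjusted p = 6.51e-06) and 1.55-fold in p21 (-0.64 ± 0.06, adjusted p = 4.52e-09), and rose 1.28-fold with Torin2 (0.35 ± 0.05, adjusted p = 1.12e-05). Against mVenus, the Torin2 level differed by -0.01 on the log2 scale (95% interval -0.12 to 0.10, adjusted p = 0.919). Nuclear and mitochondrial forms of DUT start at separate promoters, and the gene counts do not separate them.

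The start regions of these genes are shown because RRM2 and TK1 shared a pattern of change while TYMS and DUT, which also supply thymidylate, departed from it. What part the motifs below play in these patterns was not tested. RefSeq windows (GRCh38.p14) of 250 bases before to 50 after a start matched 8 of the 9 genes, in 14 windows, with no match for RRM2B. They were searched on both strands for E2F sites (TTTCCCGC, TTTGGCGC, TTTCGCGC or TTTGCCGC), the cell cycle element CHR (TTTGAA or TTCGAA), the CCAAT box and the interferon-stimulated response element, searched as GAAA, any 2 bases and GAAA. The CCAAT box stood in windows of RRM1, RRM2, TK1, SAMHD1 and TYMP, in 7 of the 14 windows, and in 34.6% of 35116 windows of this length over all genes. Windows of a gene can overlap, and both TYMP windows hold the same CCAAT box. An E2F spelling stood in 2 of the 14 windows, of TYMS and DUT, and in 3.31% of all windows. A CHR spelling stood in 2 of the 14, of RRM1 and DUT, and in 16.4% of all. The interferon element stood in none of the 14 windows and in 3.57% of all. Other spellings of these elements were not searched, so a window without a match can still hold another spelling. Of the windows below, 5′ to 3′ along the gene, RRM2 (chr2:10122489-10122788, plus strand) holds 3 CCAAT boxes and TK1 (chr17:78187003-78187302, minus strand) holds 2 in reverse. TYMS (chr18:657403-657702, plus strand) holds 1 E2F spelling and DUT (chr15:48331947-48332246, plus strand) holds 2, with 2 reverse CHR spellings. Of the several windows of RRM2, TK1 and DUT, those shown hold the most matches; capitals mark the matched letters, and a match is not evidence of a bound site.
RRM2: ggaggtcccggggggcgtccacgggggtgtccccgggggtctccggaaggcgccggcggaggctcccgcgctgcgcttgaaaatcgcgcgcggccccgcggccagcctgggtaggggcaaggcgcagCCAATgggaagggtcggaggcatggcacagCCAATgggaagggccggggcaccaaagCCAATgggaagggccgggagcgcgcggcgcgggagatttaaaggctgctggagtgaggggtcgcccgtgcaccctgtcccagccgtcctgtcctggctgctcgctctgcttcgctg
TK1: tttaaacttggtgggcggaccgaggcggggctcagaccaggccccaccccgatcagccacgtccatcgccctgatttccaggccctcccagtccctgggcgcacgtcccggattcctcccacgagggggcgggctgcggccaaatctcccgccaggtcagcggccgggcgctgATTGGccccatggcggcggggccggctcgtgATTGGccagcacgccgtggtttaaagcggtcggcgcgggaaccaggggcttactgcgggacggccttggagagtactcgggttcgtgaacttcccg
TYMS: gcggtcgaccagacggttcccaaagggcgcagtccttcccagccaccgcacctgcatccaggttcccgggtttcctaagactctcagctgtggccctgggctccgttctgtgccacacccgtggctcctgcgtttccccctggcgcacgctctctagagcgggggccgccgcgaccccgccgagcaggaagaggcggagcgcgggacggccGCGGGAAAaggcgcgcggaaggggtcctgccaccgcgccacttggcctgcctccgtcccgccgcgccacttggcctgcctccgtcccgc
DUT: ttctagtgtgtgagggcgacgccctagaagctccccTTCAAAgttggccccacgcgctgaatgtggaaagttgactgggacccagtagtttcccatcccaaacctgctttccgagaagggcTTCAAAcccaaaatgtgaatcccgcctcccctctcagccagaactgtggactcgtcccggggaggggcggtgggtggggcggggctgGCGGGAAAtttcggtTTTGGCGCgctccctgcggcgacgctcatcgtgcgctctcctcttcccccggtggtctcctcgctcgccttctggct

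SAMHD1, the deoxynucleotide triphosphohydrolase (chromosome 20, 36889773 to 36951901), was the gene of the 9 that fell most with Torin2 against p16. It had 80.0, 88.7 and 72.3 CPM in mVenus, 101, 86.1 and 110.2 in p16, 122, 126 and 131 in p21, and 16.2, 17.4 and 17.7 in p16 with Torin2. The Torin2 libraries lay far below every other library, the mVenus and p16 libraries overlapped, and p21 was highest. Torin2 lowered SAMHD1 5.79-fold in p16 cells (-2.53 ± 0.09, adjusted p = 3.55e-15), to 4.68-fold below mVenus (-2.23 ± 0.09, adjusted p = 1.95e-14). It rose 1.24-fold in p16 (0.31 ± 0.07, adjusted p = 0.00103) and 1.57-fold in p21 (0.65 ± 0.07, adjusted p = 1.42e-07), and p21 exceeded p16 (0.35 ± 0.07, adjusted p = 0.00033).

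TYMP, thymidine phosphorylase (chromosome 22, 50525752 to 50530056), had 51.3, 60.9 and 56.0 CPM in mVenus, 94.9, 93.9 and 97.1 in p16, 48.1, 45.1 and 46.4 in p21, and 56.2, 61.7 and 59.3 in p16 with Torin2. It was highest in p16 and lowest in p21, and the Torin2 libraries overlapped mVenus. TYMP rose 1.71-fold in p16 (0.77 ± 0.05, adjusted p = 1.09e-10) and fell 1.201-fold in p21 (-0.26 ± 0.06, adjusted p = 0.000631), a direct difference of 2.05-fold (-1.03 ± 0.06, adjusted p = 2.76e-12). Torin2 lowered it 1.61-fold (-0.69 ± 0.05, adjusted p = 9.07e-10). Of its exonic bases 20.7% are shared with SCO2 and ODF3B on the same strand. SCO2 was at 8.20 ± 0.590 CPM in mVenus, 11.1 ± 1.40 in p16, 11.4 ± 0.964 in p21 and 10.6 ± 1.14 with Torin2. ODF3B was at 4.59 ± 0.457 CPM in mVenus, 13.1 ± 0.704 in p16, 7.36 ± 0.553 in p21 and 10.0 ± 1.28 with Torin2, and the part of these genes in the TYMP values was not tested.

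DCTPP1, the dCTP pyrophosphatase (chromosome 16, 30423619 to 30430075), had 27.7, 32.1 and 27.7 CPM in mVenus, 37.7, 41.0 and 34.7 in p16, 25.6, 29.9 and 30.8 in p16 with Torin2, and 25.5, 26.9 and 26.3 in p21. Only the p16 libraries stood apart from all others. DCTPP1 rose 1.31-fold in p16 (0.39 ± 0.08, adjusted p = 0.000153), fell 1.31-fold with Torin2 (-0.39 ± 0.08, adjusted p = 0.00016) and was 1.44-fold lower in p21 than in p16 (-0.53 ± 0.08, adjusted p = 7.75e-06). Its p21 value did not pass against mVenus (-0.14 ± 0.08, 95% interval -0.31 to 0.02, adjusted p = 0.135), although the libraries did not overlap. With 42.1% of its exonic bases shared with the opposite-strand gene ZNF771, which rose in p21 from 4.24 ± 0.501 to 7.06 ± 0.158 CPM, its level is uncertain.

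SAMHD1 and TYMP are also known from blood cells and endothelium, so markers of other cell types were read beside them. The 9 leukocyte markers summed to 53.2 to 57.0 CPM in mVenus, 114 to 127 in p16, 108 to 110.4 in p21 and 51.2 to 55.7 in p16 with Torin2. Nearly all of this came from CSF1R and CD14, the markers of this list with enough counts to be tested, while CD3E, TYROBP and AIF1 had 0 counts in all 12 libraries and the leukocyte-wide PTPRC had 1 count in all. The 6 endothelial markers summed to 4.75 to 5.77 CPM in mVenus, 23.2 to 27.9 in p16, 2.23 to 3.38 in p21 and 7.63 to 10.4 with Torin2. The 7 fibroblast markers summed to 111 to 117 CPM in p21, of which DCN gave 109, and to 20.1 to 20.5 CPM in mVenus, 6.98 to 7.48 in p16 and 5.60 to 5.90 with Torin2. Of the endothelial sum in p16, ROBO4 gave 21.8 CPM, against 2.33 in mVenus. KDR was at 1.98 CPM in mVenus, 2.59 in p16, 1.15 in p21 and 2.06 with Torin2. PECAM1 was at 0.653, 1.44, 0.310 and 0.152 CPM in the same order. CDH5, TIE1 and VWF each had a mean of at most 0.303 CPM in every group. Among the fibroblast markers COL1A1 went the other way from DCN, from 9.15 CPM in mVenus to 3.86 in p21. The part of the endothelial and fibroblast markers in the results was not tested.

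**Figure D3:**
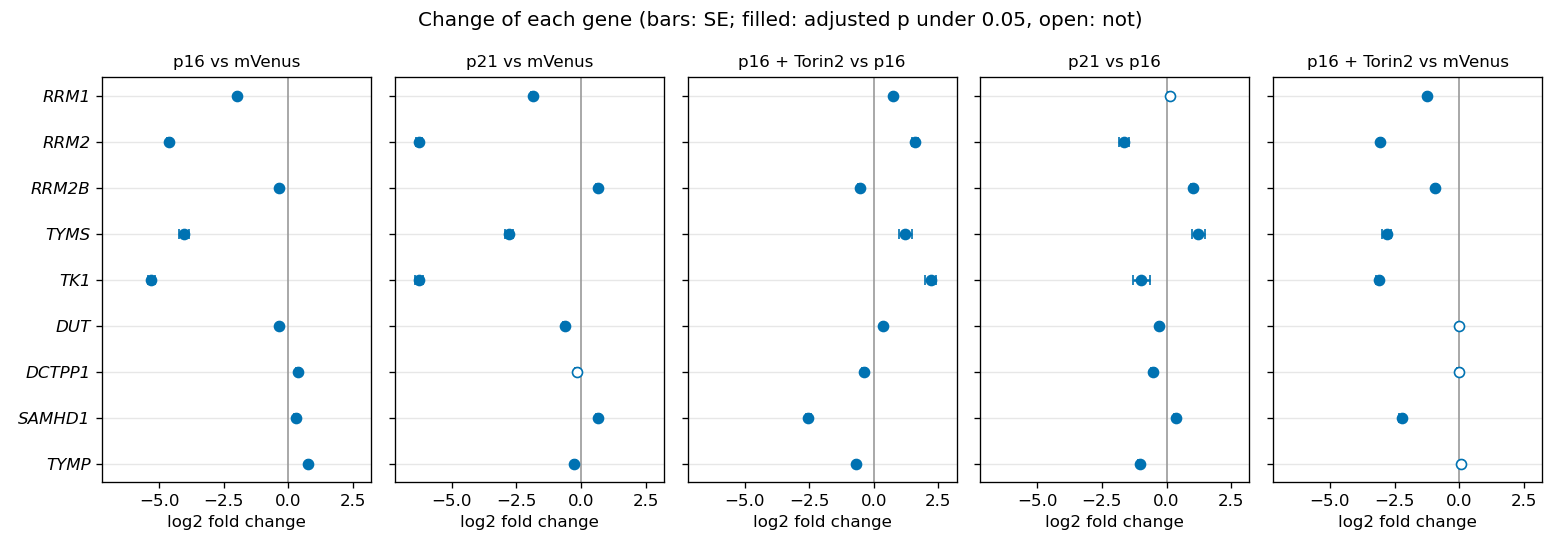
Log2 fold changes of the 9 genes (points) with their SE (bars) in 5 comparisons; filled points had an adjusted p under 0.05 and open points did not. RRM2 and TK1 change most against mVenus, RRM2B and TYMP lie on opposite sides of 0 in p16 and p21, and SAMHD1 lies farthest below 0 in p16 with Torin2 against p16.

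Tested directly, p21 and p16 differed for 8 of the 9 genes, 3 higher and 5 lower in p21, where 27.2% of all tested genes were called in each direction. The libraries of both groups did not overlap for 8 of 9, as for 58.9% of all tested genes. RRM2B, TYMS and SAMHD1 were higher in p21, and RRM2, TK1, DUT, DCTPP1 and TYMP were higher in p16. Compared with cycling mVenus cells, p16 cells with Torin2 had 6 of the 9 lower and 0 higher, against 36.1% and 31.2% of all tested genes by edgeR. No member had a higher value at an unadjusted p under 0.05 in that comparison, and the DESeq2 Wald test also called 0 higher. The 3 that did not pass were DUT, DCTPP1 (-0.01, 95% interval -0.17 to 0.15) and TYMP (0.08, 95% interval -0.04 to 0.20), and for 6 of 9 the libraries did not overlap, as for 71.2% of all tested genes. TYMS remained 7.03-fold, TK1 8.63-fold and RRM1 2.37-fold below mVenus, and RRM2B was 1.89-fold below.

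The rest of nucleotide metabolism was read through 7 lists of 79 genes, of which 75 were tested. In p16 22 rose and 30 fell, in p21 18 rose and 29 fell, and with Torin2 34 rose and 25 fell, with medians of -0.06, -0.08 and 0.15. Over all tested genes, 30.9% were called higher and 32.8% lower in p16, 28.2% and 28.3% in p21, and 30.3% and 29.0% with Torin2. These shares apply to each list below, and many of the lists' counts lie near them. In the folate list, which feeds thymidylate synthesis, 3 of 10 tested genes rose and 4 fell in p16, 3 rose and 3 fell in p21, and 5 rose and 3 fell with Torin2. The mitochondrial folate enzyme MTHFD2L rose in p16 (1.34 ± 0.08) and p21 (0.66 ± 0.09) and fell with Torin2 (-0.54 ± 0.08).

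Of 5 de novo pyrimidine genes, 4 fell and 0 rose in p16 by edgeR, with DHODH not passing at 0.10; 4 fell and DHODH rose in p21 (0.29 ± 0.12), and 4 rose and 1 fell with Torin2. CAD, the enzyme of the opening steps, went from 124 ± 1.77 CPM in mVenus to 80.5 ± 2.90 in p16 and 78.9 ± 1.71 in p21, and stood at 157 ± 6.74 with Torin2 (0.97 ± 0.04 against p16). The CTP synthase CTPS2 fell in p16 (-1.15 ± 0.09) and p21 (-1.18 ± 0.09) and rose with Torin2 (0.80 ± 0.09), while CTPS1 fell with Torin2 (-0.48 ± 0.06). Of 13 purine synthesis genes, 6 rose and 5 fell in p16, 3 rose and 6 fell in p21, and 7 rose and 3 fell with Torin2. PRPS2, which makes the ribose precursor, fell in p16 (-1.02 ± 0.07) and rose with Torin2 (0.92 ± 0.07). IMPDH2, the rate-limiting enzyme of guanine nucleotide synthesis, had 183 ± 3.62 CPM in mVenus, 238 ± 7.22 in p16 and 467 ± 13.8 with Torin2 (0.97 ± 0.04 against p16). In p21 it had 176 ± 3.65 CPM, which did not pass against mVenus (-0.06 ± 0.04, 95% interval -0.14 to 0.02) and was below p16 (-0.44 ± 0.04).

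Among 13 tested nucleotide kinases, 6 rose and 2 fell in p16, 4 rose and 3 fell in p21, and 2 rose and 7 fell with Torin2. Thymidylate kinase, DTYMK, the step after TYMS and TK1, fell in p16 (-0.86 ± 0.08) and p21 (-1.06 ± 0.08), and with Torin2 had 15.5 ± 1.48 CPM against 15.5 ± 0.611 in p16. CMPK2, a mitochondrial kinase known to be induced by interferon, rose from 6.53 ± 1.37 CPM in mVenus to 30.4 ± 5.41 in p16 (2.21 ± 0.14) and 32.4 ± 3.69 in p21 (2.30 ± 0.14), and fell to 2.17 ± 0.587 with Torin2 (-3.80 ± 0.18). Of 14 salvage genes, 1 rose and 8 fell in p16, 3 rose and 4 fell in p21, and 6 rose and 4 fell with Torin2. Deoxycytidine kinase, DCK, fell from 21.7 ± 0.442 CPM in mVenus to 8.90 ± 1.02 in p16 and 8.80 ± 0.977 in p21, and rose to 15.7 ± 0.817 with Torin2. TK2, the mitochondrial counterpart of TK1, rose in p21 (0.63 ± 0.06); 25.0% of its exonic bases are shared with other genes.

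Genes known to respond to E2F, p53 and interferon were set beside the 9. Of 19 tested S-phase genes known as E2F targets, 18 fell and 0 rose in p16 (median -2.17), 19 fell in p21 (median -2.67), and 15 rose and 0 fell with Torin2 (median 0.86). The values of RRM1, RRM2, TYMS, TK1 and DUT had these signs in all 3 comparisons. Of 19 tested p53 target genes, 7 rose and 8 fell in p16 (median -0.02), 17 rose and 1 (DDB2) fell in p21 (median 0.36), and 1 rose and 17 fell with Torin2 (median -0.69). RRM2B, itself a p53 target, had values of -0.37, 0.64 and -0.55 in these comparisons; the list holds CDKN1A, whose counts in p21 can include transgene reads. Of 19 tested interferon-stimulated genes, 17 rose and 1 (MX1) fell in p16 (median 2.36), 17 rose and 1 (MX1) fell in p21 (median 2.67), and 0 rose and 18 fell with Torin2 (median -3.34). SAMHD1 had the signs of those medians in all 3 (0.31, 0.65 and -2.53), and TYMP and DCTPP1 in p16 and with Torin2 but not in p21. In p21 and with Torin2, SAMHD1 also had the signs of the p53 medians. The lists were chosen with earlier results of these data known, so shared signs are a description and no test.

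**Figure D4:**
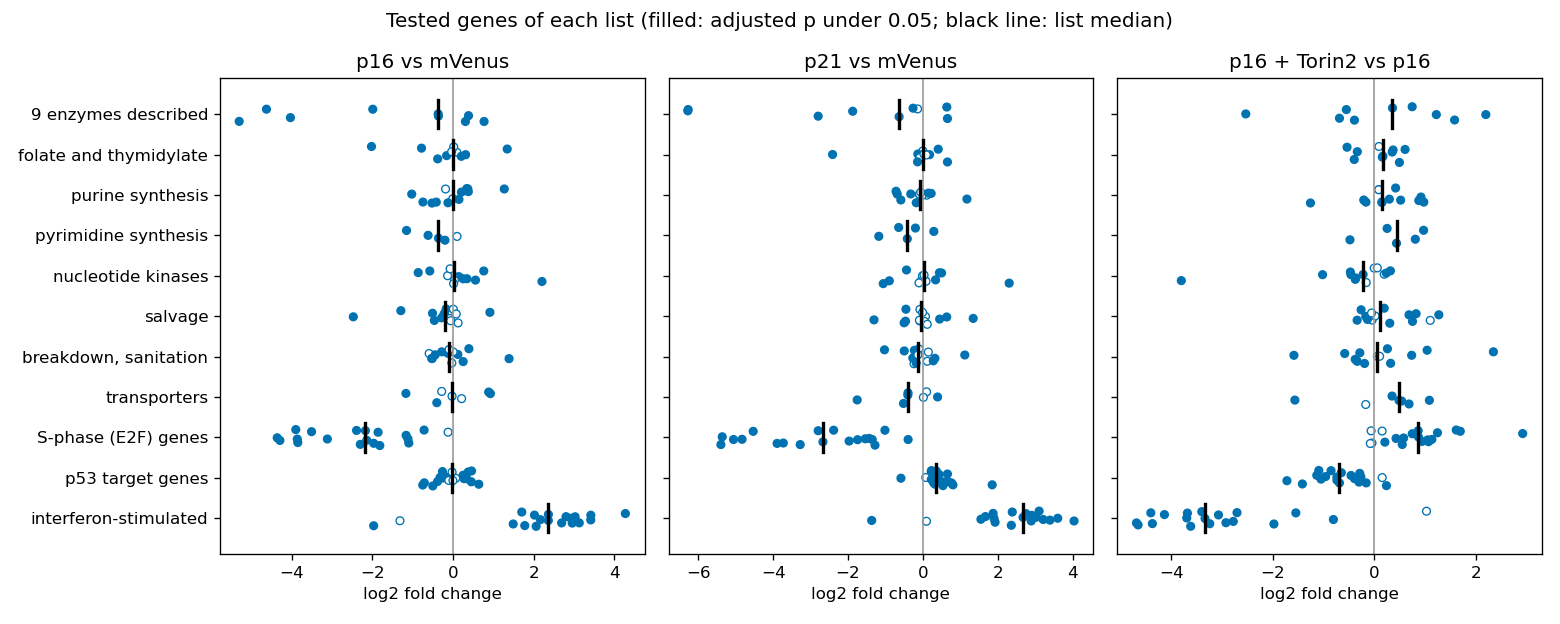
Log2 fold changes of the tested genes of each list in p16 against mVenus, p21 against mVenus and p16 with Torin2 against p16; filled points had an adjusted p under 0.05, and black lines mark list medians. The E2F list has medians of -2.17, -2.67 and 0.86, the interferon list 2.36, 2.67 and -3.34, and the nucleotide metabolism lists have medians closer to 0.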

How the data were processed

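Messenger RNA of 12 libraries, selected with oligo-dT beads and made with a stranded kit per the labels' protocols, was analysed. The authors deposited whole-number counts per gene for each library, made per the file headers with featureCounts 1.6.3 over exons of GENCODE 29, summarised by gene name, with no option for strand, multimapping reads or pairs. The submitters' processing notes also list FastQC 0.11.3, HISAT2, Subread, DESeq2 and the build GRCh38.p7. With these settings, reads that overlap several genes are left unassigned, whatever their strand. The authors also deposited 3 tables of comparisons that give a log2 fold change, a p-value, a statistic (a score) and a mean signal per gene. In the authors' deposited tables, all 27 values of the 9 genes had the sign and side of 0.05 found here, with differences of at most 0.02 on the log2 scale.

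After filterByExpr, 14504 genes remained; libraries were scaled by TMM, and tests used the two-sided quasi-likelihood test of edgeR 4.0.16 (R 4.3.3), 1 fit of all 12 libraries with a coefficient per group and 8 residual degrees of freedom, adjusted by Benjamini-Hochberg over all genes. SE is the size of the log2 fold change over the root of the test statistic, and 95% intervals use the test's degrees of freedom. On simulated counts, edgeR recovered 42%, 82%, 98% and 100% of 50 genes each changed 1.2-, 1.5-, 2- and 4-fold for p16 against mVenus, with 7 false calls among 14175 genes. The simulation gave every gene the same biological coefficient of variation (3.94%) and changed only genes above a low mean level. Most of its genes were unchanged, unlike those of these data, so its rates need not hold here. Limits from 0 counts use 3 counts over a group and, like the SDs of low counts, cover no other source of error. Any 2 libraries of a group differed beyond counting noise, with a chi-square of 1.61 to 6.15 times its degrees of freedom. The alternatives tried were scaling by total counts, upper quartile or DESeq2 size factors, no low-count filter, the Wald test of DESeq2 1.42.0, only the libraries compared, a replicate block and each library left out. No column of another sample was used. The genes and lists were chosen with earlier results of these data known. Named genes of other pathways were at most the 2 highest and 2 lowest called per list and comparison, and the 3 nearest genes by pattern for each of the 9; DTYMK with Torin2, DHODH in p16, DDB2, MX1 and the single markers were chosen after their values were seen. A gene that this rule names is not reported here. Promoters are from RefSeq (GRCh38.p14). Figures were drawn with matplotlib 3.10.9.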

Additional observations from a re-analysis of the deposited data

Results flagged for a closer look

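The effects of p21 and of p16 against the mVenus control they share differed for 8 of the 9 genes in the direct edgeR test of p21 against p16. As p21 minus p16 on the log2 scale, the difference was -1.64 for RRM2, 1.004 for RRM2B, 1.23 for TYMS, -0.97 for TK1, -0.28 for DUT, -0.53 for DCTPP1, 0.35 for SAMHD1 and -1.03 for TYMP. For RRM2B the effect was below 0 in p16 and above 0 in p21, each with a called change, and for TYMP it was the reverse. For RRM2, TYMS, TK1, DUT and SAMHD1 both effects had the same sign and differed in size.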

How the results depend on the processing

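Of 585 recomputed log2 fold changes of the 9 genes, 566 kept their direction and side of the threshold. The 13 that changed sign were values near 0 in p16 with Torin2 against mVenus. For DUT they were 0.00372 with DESeq2 size factors, 0.00355 with the DESeq2 Wald test, 0.0191 with upper quartile scaling, 0.0249 without the low-count filter and 0.0247 with only the libraries compared, and with each library left out the value ran from -0.0174 to 0.0147. For DCTPP1 they were 0.00111 with DESeq2 size factors, 0.0165 with upper quartile scaling, 0.0222 without the low-count filter and 0.0224 with only the libraries compared, and with each library left out the value ran from -0.0581 to 0.0705. None of these was called, and the cause was not tested. In that comparison the count of genes called higher ran from 0 to 1 with each library left out, since TYMP passed without mVenus replicate 2 (0.14, adjusted p = 0.0407 by edgeR). The calls of TK1 in p21 against p16 that ended are given with its values. RRM1 in p21 against p16 passed with total counts only (0.15, adjusted p = 0.0202) and without p21 replicate 3 (0.15, adjusted p = 0.038), and DCTPP1 in p21 against mVenus passed with total counts only (-0.21, adjusted p = 0.0255), all by edgeR. Scaling by total counts moved the median of all genes to -0.11 in p16 against mVenus and the share of calls that were higher from 48.6% to 36.9%, and from 49.9% to 39.6% in p21 against mVenus. Libraries of the same replicate number did not deviate together (correlation across genes over 0.1 in 2 of 18 pairs, and best with the own number in 12 of 36 cases), so the numbers were not taken as pairs. A replicate block changed no call of the 9 genes, with 6 lower and 3 higher in p16 against mVenus, and calls over all genes of 4419 higher and 4696 lower. TYMS and TK1 rest on at most 19 counts a library in p16, which limits their precision.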

Other observations

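Genes whose pattern over the 12 libraries lay closest to each of the 9 were found as the smallest root mean square difference of log2(CPM + 0.1), each gene centred on its own mean, among 10267 other genes of at least 5 CPM. Genes that vary little lie close to many others, so distances are not comparable between genes. Closest to RRM1 were MCM6, a subunit of the replicative helicase (0.084), IQGAP3 (0.143) and UBE2T (0.144). Closest to RRM2 were the cytokinesis gene ANLN (0.274), the mitotic kinesin KIF2C (0.294) and GTSE1 (0.321), and TK1 ranked 10 (0.370). Closest to TK1 were FAM111B (0.275), RRM2 (0.370) and KIF2C (0.394). Closest to TYMS were SEMA3B (0.432), TICRR (0.444) and WDR76 (0.448). Closest to RRM2B were RETREG1 (0.066), PROS1 (0.084) and ALDH1L2 (0.091), to SAMHD1 SESN3 (0.188), TNS1 (0.202) and METTL7A (0.202), and to TYMP S100A16 (0.099), LGALS3 (0.10) and CAMSAP3 (0.109). DUT lay closest to RAD18 (0.058), PRPF38A (0.070) and SH3KBP1 (0.074), and DCTPP1 to RRP7A (0.079), the glycolytic enzyme GPI (0.084) and VASP (0.086).

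Lists of breakdown and transport genes were read beside the shares over all tested genes, 30.9% higher and 32.8% lower in p16, 28.2% and 28.3% in p21, and 30.3% and 29.0% with Torin2. Of 13 tested nucleotidase and pool sanitation genes, 4 rose and 5 fell in p16, 3 rose and 5 fell in p21, and 5 rose and 6 fell with Torin2, counts of which several lie near those shares. The pyrimidine nucleotidase NT5C3A rose from 32.5 ± 0.970 CPM in mVenus to 85.1 ± 15.0 in p16 and 70.2 ± 3.56 in p21, and stood at 28.3 ± 0.423 with Torin2. NUDT1, which removes oxidised purine nucleotides, fell in p16 (-0.52 ± 0.15) and p21 (-1.03 ± 0.16). NT5M, a mitochondrial deoxynucleotidase, rose with Torin2 (2.34 ± 0.33) from 19 to 98 counts over 3 libraries. Of 7 transporters, 2 rose and 2 fell in p16, 1 rose and 4 fell in p21, and 5 rose and 1 fell with Torin2. SLC28A3 (0.93 ± 0.13) and SLC29A2 (0.88 ± 0.10) rose in p16. The nucleoside transporter SLC29A1 fell from 16.8 ± 1.17 CPM in mVenus to 7.44 ± 0.678 in p16 and 4.94 ± 0.778 in p21, and rose to 15.7 ± 0.198 with Torin2. Cytidine deaminase, CDA, had the largest difference between p21 and p16 of these genes (3.81 ± 0.34), from 11 counts over the p16 libraries to 158 over those of p21. Uridine phosphorylase, UPP1, was at 53.5 ± 4.18 CPM in p16 and 129 ± 5.27 with Torin2 (1.27 ± 0.05).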
